A study of Homo sapiens with 18 samples.

Results

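The genes described here encode collagens, laminins and other proteins of the extracellular matrix, 39 in all, and were chosen by a list of gene symbols. They were read in a panel of 18 human lines whose label is colorectal cancer (CRC), with 1 array for each line, so no value has a replicate error. Of the 39, 37 had a probe set that matched them and no other gene and were measured, out of 19774 genes read in this way; COL17A1 and LAMA3 were not analysed here. Each gene was read from its probe set with the highest mean over the 18 lines, as a log2 intensity. The lines differed by identity, and their single further grouping was the medium, which the shared growth protocol gives by line name. In DMEM/F-12 with fetal bovine serum, penicillin and streptomycin were 10 lines, namely CAR1, CL40, HT55, HUTU80, LS180, OUMS23, RKO, SW1463, SW48 and SW948. In RPMI-1640 with the same additions plus glucose and sodium pyruvate were 8 lines, namely COLO320HSR, HCT116, KM12, LS513, MDST8, NCIH716, RCM1 and SNUC1. HUTU80 carries the same CRC label, although it is known as a line from a tumour of the duodenum. A line is the descendant of the tumour of 1 patient, and a culture holds no host connective tissue. The level in a culture is an average, so fewer expressing cells and less RNA per cell cannot be told apart.

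Extracellular matrix is built in layers. The basement membrane is a thin sheet under every epithelium, made of a laminin network and a collagen IV network that nidogens and the proteoglycan perlecan hold together, and epithelial cells make part of it themselves. The interstitial matrix below it consists of fibrils of collagens I, III and V with fibronectin, fibrillins and small proteoglycans such as lumican and decorin, and in the bowel wall it is known as the product of fibroblasts. Matricellular proteins such as thrombospondins, tenascin C and SPARC are secreted into the matrix and alter how cells attach to it, and lysyl oxidases cross-link its collagen. The members were sorted into 17 interstitial genes, 13 measured basement membrane genes (of 15 listed) and 7 matricellular and cross-linking genes.

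Collagen IV chains are encoded in pairs of genes that lie head to head, so that a single stretch of DNA holds both start sites. The sequences of both pairs among the members are shown because COL4A1 and COL4A2 differed over these lines, as described with their values below, and COL4A5 and COL4A6 are the pair to compare them with. Each stretch runs from 250 bases before to 50 bases after the start of the gene in RefSeq (GRCh38.p14), 5′ to 3′ on the strand of the gene. Capitals mark the GC box (GGGCGG, or CCGCCC where on the other strand) and the CCAAT box (CCAAT, or ATTGG), and no match overlapped another. COL4A1 lies at chr13:110307108-110307407 on the minus strand and COL4A2 at chr13:110307034-110307333 on the plus strand. COL4A5 lies at chrX:108439588-108439887 on the plus strand and COL4A6 at chrX:108439409-108439708 on the minus strand.
COL4A1: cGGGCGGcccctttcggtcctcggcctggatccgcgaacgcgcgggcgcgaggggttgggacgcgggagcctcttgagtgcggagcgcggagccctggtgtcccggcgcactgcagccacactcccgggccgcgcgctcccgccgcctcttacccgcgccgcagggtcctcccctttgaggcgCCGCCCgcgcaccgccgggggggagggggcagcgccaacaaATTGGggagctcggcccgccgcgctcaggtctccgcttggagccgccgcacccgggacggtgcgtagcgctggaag
COL4A2: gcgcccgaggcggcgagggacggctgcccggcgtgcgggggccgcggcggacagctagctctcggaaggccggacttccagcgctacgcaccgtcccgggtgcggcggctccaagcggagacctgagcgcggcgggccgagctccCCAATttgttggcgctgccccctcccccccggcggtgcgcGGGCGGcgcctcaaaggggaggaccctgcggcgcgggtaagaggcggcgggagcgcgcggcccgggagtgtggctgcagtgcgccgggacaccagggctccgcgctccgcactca
COL4A5: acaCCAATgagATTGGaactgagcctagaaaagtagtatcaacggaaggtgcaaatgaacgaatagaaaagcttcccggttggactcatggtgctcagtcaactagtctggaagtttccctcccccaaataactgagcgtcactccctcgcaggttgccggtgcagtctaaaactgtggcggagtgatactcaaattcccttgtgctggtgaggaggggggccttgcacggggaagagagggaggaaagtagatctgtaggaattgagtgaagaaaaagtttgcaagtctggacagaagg
COL4A6: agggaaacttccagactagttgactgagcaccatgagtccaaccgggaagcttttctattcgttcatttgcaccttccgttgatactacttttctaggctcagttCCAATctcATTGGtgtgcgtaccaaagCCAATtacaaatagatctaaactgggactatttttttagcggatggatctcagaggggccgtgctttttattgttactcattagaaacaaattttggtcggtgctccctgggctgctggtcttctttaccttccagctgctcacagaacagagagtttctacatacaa

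The start sites of COL4A1 and COL4A2 were 126 bases apart, and their windows shared 226 bases. Those of COL4A5 and COL4A6 were 379 bases apart, and their windows shared 121 bases. The stretch of COL4A1 and that of COL4A2 each held 45 CpG dinucleotides, and those of COL4A5 and COL4A6 held 8 and 7, against a median of 14 over 35116 RefSeq promoters. COL4A1 had 2 GC boxes and 1 CCAAT box, and COL4A2 had 1 of each. The printed stretches of COL4A5 and COL4A6 had no GC box, with 2 and 3 CCAAT boxes. COL4A6 had a second listed promoter, at chrX:108438373-108438672, with 5 CpG dinucleotides, 1 GC box and 0 CCAAT boxes. The distance and counts given for COL4A6 hold for the printed promoter. Over all promoters of that length, 45.0% held a GC box, 34.6% a CCAAT box and 11.5% a TATA box (TATAAA), counting both strands.

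Limits of 2 kinds on brightness are used below. A probe set was called above background where it exceeded 4.04 log2 units, the 95th percentile of probe sets of genes restricted to other tissues. A stricter level of 5 log2 units was chosen after the data were seen, because the chosen COL1A1 probe set lay at 4.04 to 4.93 in all 18 lines. Of the 37 measured members, 35 exceeded background in at least 1 line, against 73.9% of all genes. At 5 log2 units 32 did, against 64.9%. In all 18 lines, 5 members exceeded background (COL1A1, LAMA5, LAMB1, LAMB2 and LAMC1) against 40.5% of all genes, and 2 exceeded 5 (LAMB1 and LAMC1) against 33.5%. Thus nearly every matrix gene was measurable in some line and few in every line.

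Interstitial genes were above the levels in fewer lines than genes in general, and basement membrane genes about as often as genes in general. At 5 log2 units, 108 of 234 combinations of a basement membrane gene and a line were above the level (46.2%), against 41 of 306 for interstitial genes (13.4%) and 26 of 126 for matricellular and cross-linking genes (20.6%). Over all genes it was 47.5%. At the background level these shares were 55.6%, 30.1% and 23.0%, against 55.0% over all genes. The median basement membrane gene exceeded 5 in 10 lines, the median interstitial gene in 2, the median matricellular or cross-linking gene in 3 and the median of all genes in 6. Of the 17 interstitial genes, 12 exceeded 5 in 1 to 4 lines and 0 in 10 or more, and 7 of the 13 basement membrane genes did so in 10 or more. The shares of all genes in these bands were not counted, so these counts have no base to be read against. Over all genes, 33.5% exceeded 5 in all 18 lines. The classes overlapped: COL6A1 was above 5 in 9 lines, and NID2 and COL4A5 in 1 each. No test was made between the classes, because their members are not replicates.

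**Figure D1:**
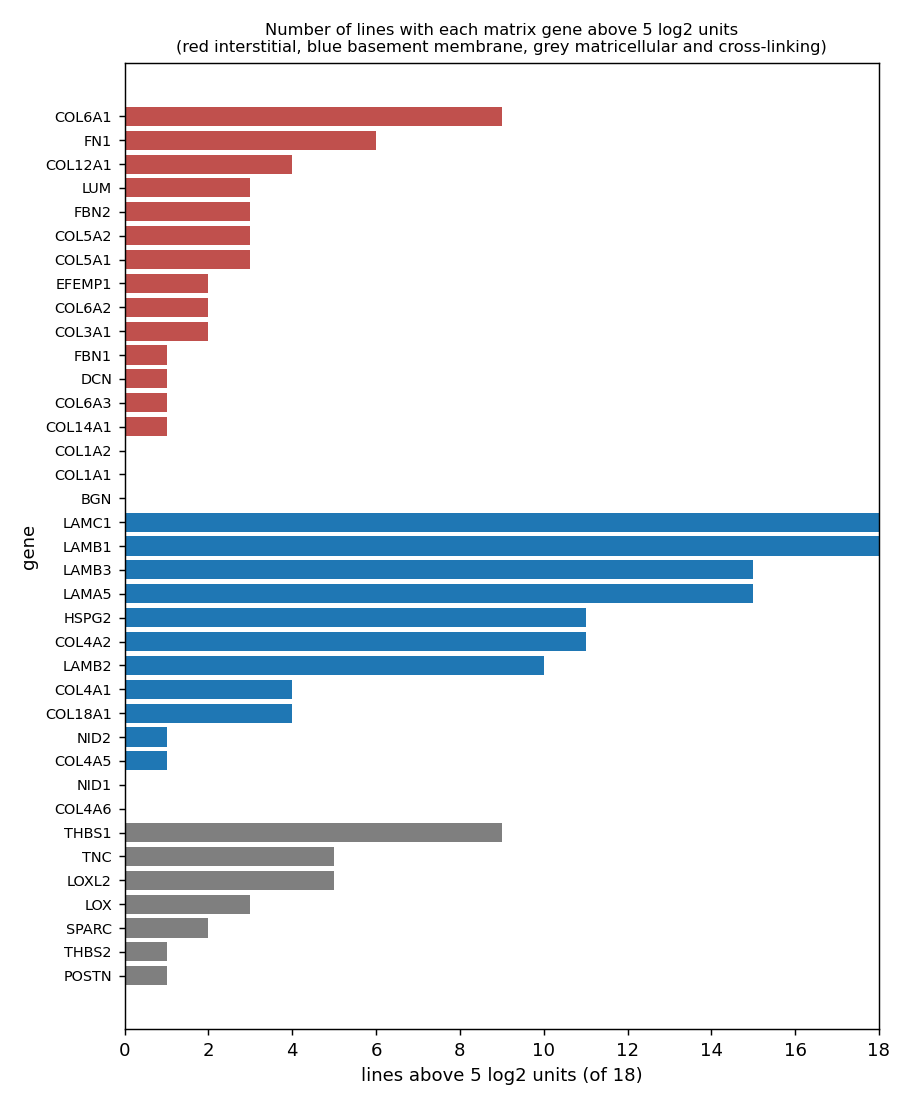
Number of lines, out of 18, in which each matrix gene exceeded 5 log2 units. LAMB1 and LAMC1 reach 18 and COL6A1, the most widespread interstitial gene, 9; COL1A1, COL1A2, BGN, COL4A6 and NID1 are at 0.

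Most members varied widely. A range of at least 3 log2 units (8-fold) over the lines was found in 29 members, 12 interstitial, 10 basement membrane and 7 matricellular or cross-linking, against 33.5% of genes above background. In 5 members the highest line stood at least 3 log2 units above every other line, against 2.87% of genes. These were COL14A1 and COL3A1 in NCIH716, DCN in HUTU80, FBN1 in MDST8 and THBS2 in KM12, and none was a basement membrane gene. In the map of all members by line, most interstitial rows are bright in few lines, and the LAMB1 and LAMC1 rows are bright in every line.

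**Figure D2:**
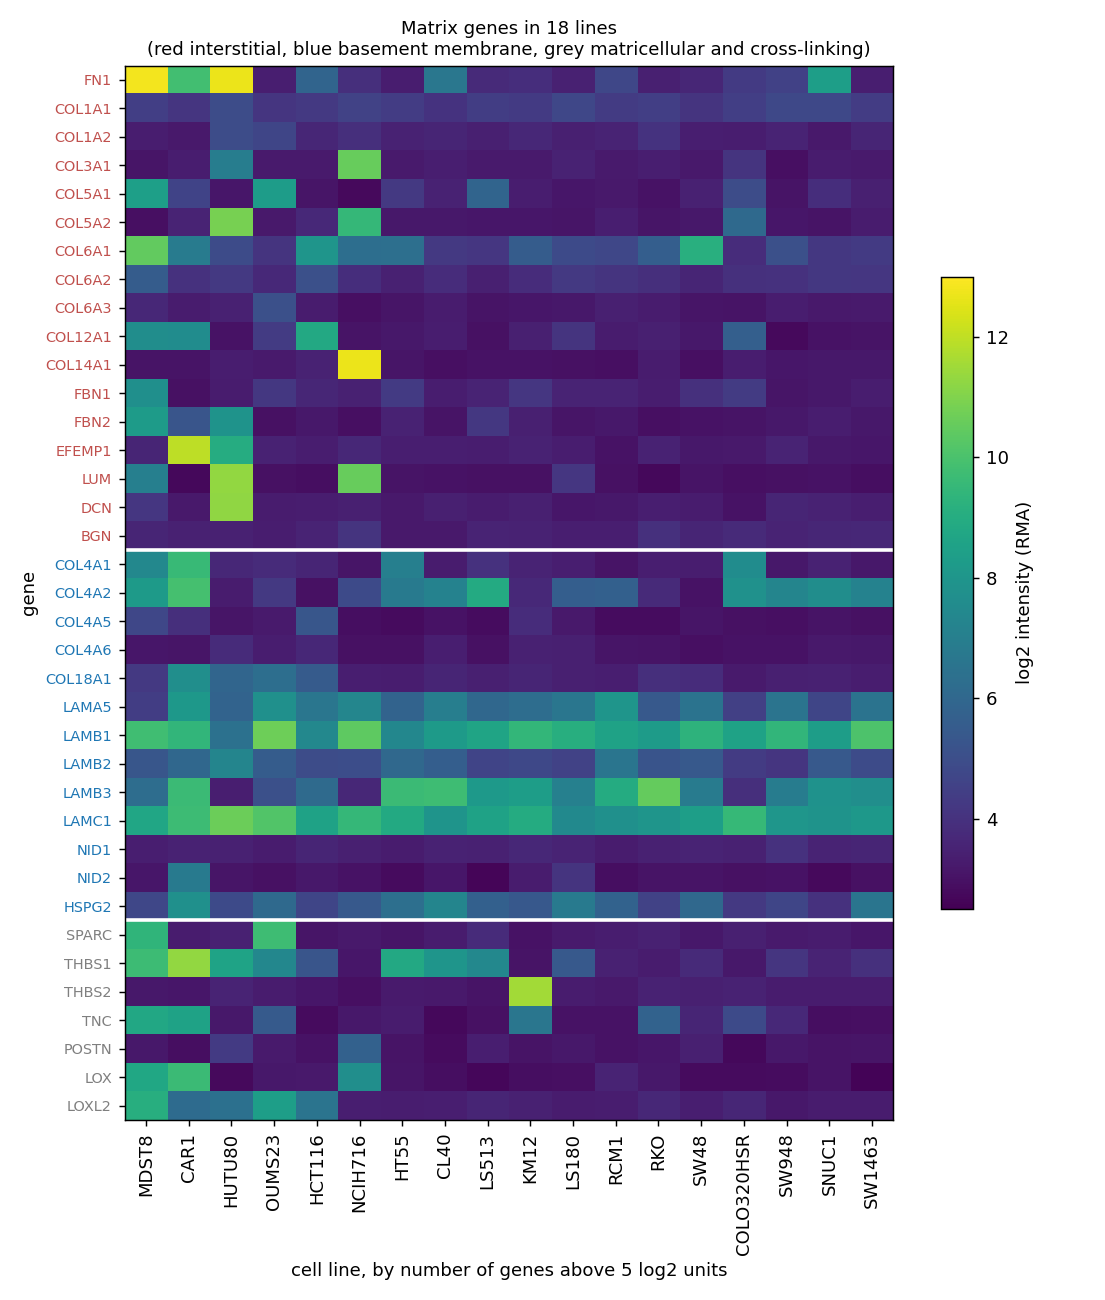
Log2 intensity of the 37 measured matrix genes (vertical axis, by class) in 18 cell lines (horizontal axis, ordered by the number of members above 5 log2 units), 1 array each. LAMB1 and LAMC1 are bright in every line, while COL14A1 (12.70 in NCIH716), DCN (11.27 in HUTU80) and THBS2 (11.55 in KM12) are bright in 1.

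Laminins are trimers of an alpha, a beta and a gamma chain that polymerise on the cell surface and start the basement membrane. LAMC1, the common gamma chain, ran from 7.47 in LS180 over a median of 8.54 to 10.64 in HUTU80. LAMB1, its usual beta partner, ran from 6.43 in HUTU80 over a median of 8.84 to 10.68 in OUMS23. LAMA5, the alpha chain of adult epithelial basement membranes, ran from 4.39 in MDST8 over a median of 6.49 to 8.10 in CAR1. All 18 lines therefore had these 3 chains above background, and 15 had them above 5; in SNUC1, MDST8 and COLO320HSR the chain under 5 was LAMA5, at 4.67, 4.39 and 4.49. The levels of LAMB1 and LAMC1 had a Pearson value of -0.0158 and a Spearman value of 0.203 over the 18 lines, and HUTU80 had the highest LAMC1 and the lowest LAMB1. LAMB2, the beta chain that can replace LAMB1, ran from 4.11 in SW948 over a median of 5.27 to 7.28 in HUTU80.

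LAMB3 encodes the beta chain of the laminin that anchors hemidesmosomes, the attachment plaques of epithelia. It ran from 3.40 in HUTU80 over a median of 7.38 to 10.50 in RKO and was above background in 15 lines. The 3 lines below it were HUTU80, NCIH716 (3.65) and COLO320HSR (3.92), and the next lowest was OUMS23 at 5.08. These 3 also had CDH1, the epithelial cadherin, at 4.08, 3.67 and 3.50. RKO and MDST8 likewise had low CDH1 (3.43 and 3.16), yet their LAMB3 was 10.50 and 6.24. LAMB3 was thus under background in some lines with low CDH1 and high in others.

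HSPG2, the gene of perlecan, ran from 3.98 in SNUC1 over a median of 5.57 to 7.76 in CAR1 and was above 5 in 11 lines. Its other probe set did not pass 3.95 (CAR1), under background, so this breadth rests on 1 probe set. COL18A1, a basement membrane collagen whose end fragment is endostatin, had a median of 3.53 and was above 5 in CAR1 (7.70), OUMS23 (6.30), HUTU80 (5.92) and HCT116 (5.51). NID2, a nidogen that links laminin to collagen IV, had a median of 3.03 and was above 5 in CAR1 alone (6.77), with LS180 next at 4.08. NID1, its relative, stayed between 3.29 and 3.99 by the chosen probe set. Another NID1 probe set reached 6.03 in SW948 and 5.47 in COLO320HSR, so NID1 rests on the choice of probe set. In CAR1, 10 of the 13 basement membrane genes were above 5, and the 13 lay at a median of 1.78 log2 units over their means across the panel, against -0.09 for all genes in that line.

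COL4A1 and COL4A2 encode the chains that combine, with COL4A1 supplying most copies, into the collagen IV of nearly all basement membranes. COL4A1 ran from 3.05 in RCM1 over a median of 3.53 to 9.57 in CAR1. It fell into a low set of 14 lines, none above 4.01, and a high set of HT55 (7.04), MDST8 (7.42), COLO320HSR (7.62) and CAR1. COL4A2 ran from 2.95 in HCT116 over a median of 6.28 to 9.90 in CAR1 and was above 5 in 11 lines. Both chains were above 5 in the 4 lines of the high set, COL4A2 without COL4A1 in 7 lines (RCM1, SNUC1, SW948, SW1463, LS513, LS180 and CL40), neither in 7, and COL4A1 without COL4A2 in 0. At the background level the same states held 4, 9, 5 and 0 lines.

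Among the lines with COL4A2 alone, LS513 had the highest COL4A2 (8.93), with COL4A1 at 4.01, just under background. In SNUC1 COL4A2 was 7.65 and COL4A1 3.50, and in SW948 they were 7.27 and 3.18. A second probe set of each gene gave 4 lines with both, 8 with COL4A2 alone, 6 with neither and 0 with COL4A1 alone at the background level. At 5 log2 units it gave 3, 6, 9 and 0, where HT55 left the first state because its second COL4A1 probe set read 5.00, just under the level. The 2 probe sets of COL4A1 correlated at 0.977 over the lines and those of COL4A2 at 0.941. No correlation of the 2 genes is given, because COL4A1 fell into separate sets and was under background in all 14 low lines. In the lines with COL4A2 alone above 5, COL4A2 ran from 5.63 in LS180 to 8.93 in LS513, and COL4A1 did not pass 4.01. The start sites printed above, 126 bases apart, are positions in the reference, and which start each line uses was not measured. The levels of the 2 genes come from different probe sets and were each read against the same limit, not against each other.

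**Figure D3:**
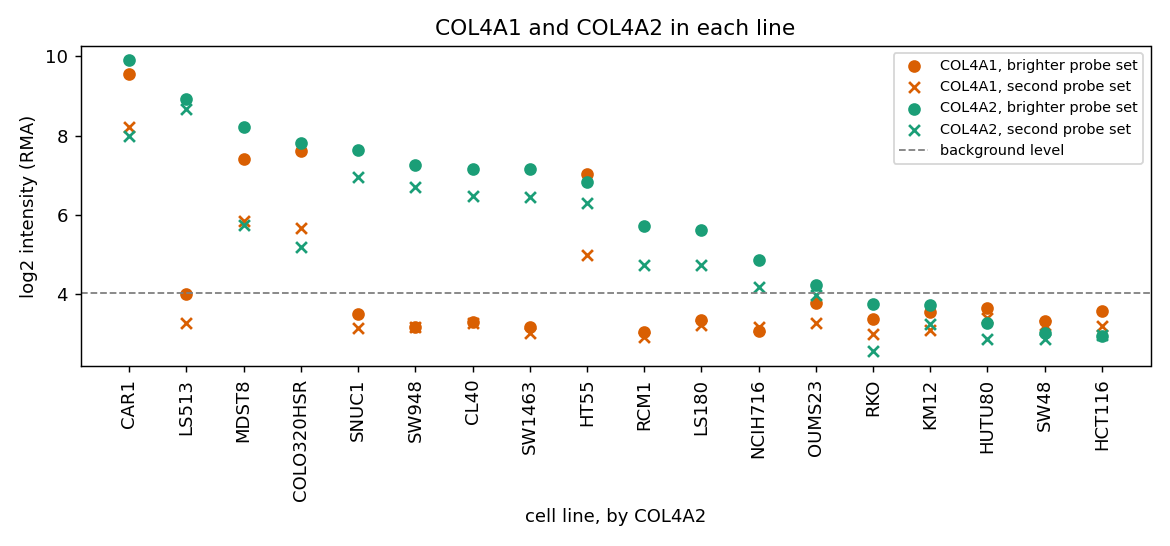
Log2 intensity of COL4A1 (orange) and COL4A2 (green) in each of 18 lines, ordered by COL4A2, with circles for the brighter and crosses for the second probe set; the dashed line is the background level of 4.04. In 4 lines both genes lie above 5 by the brighter probe sets, and in 7 lines COL4A2 alone does.

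COL4A5 and COL4A6, which supply chains to specialised basement membranes, were low throughout. COL4A5 had a median of 3.02 and exceeded background in HCT116 (5.30) and MDST8 (4.75), though not by its other probe set (at most 3.26). COL4A6 did not exceed 3.80 in any line. Of the 13 measured basement membrane members, COL4A6 and NID1 were those not above background in any line.

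Fibronectin (FN1) is the interstitial glycoprotein that cells bind through integrins and on which collagen fibrils are laid down. It ran from 3.32 in HT55 over a median of 4.09 to 12.82 in MDST8. HUTU80 was close behind at 12.70, followed by CAR1 (9.82), SNUC1 (8.39), CL40 (6.67) and HCT116 (5.87), and the remaining lines were at or under 4.72. The 2 brightest of its 7 probe sets correlated at 0.995. In SNUC1 and CL40, where CDH1 was 11.48 and 11.58, FN1 was the single interstitial member above 5 by the chosen probe sets.

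Collagen III and collagen V form and regulate thin fibrils. COL3A1 had a median of 3.27 and was high in NCIH716 (10.57) and HUTU80 (6.95), with all other lines at or under 4.06. COL5A2 had a median of 3.19 and was high in HUTU80 (10.85), NCIH716 (9.47) and COLO320HSR (6.10), with all others at or under 3.71. The 2 genes are neighbours on chromosome 2, and both were highest in NCIH716 and HUTU80, in opposite order (Pearson 0.883, Spearman 0.439, n = 18). Without NCIH716 and HUTU80 the Pearson value was 0.831, where COLO320HSR was highest in both, with COL3A1 (4.06) just above background. The other 15 lines lay at or under 3.71 in both, under background. The Pearson values therefore rest on NCIH716, HUTU80 and COLO320HSR.

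COL5A1, the main chain of collagen V, had a different set of lines. It had a median of 3.44 and was above 5 in MDST8 (8.41), OUMS23 (8.32) and LS513 (5.87), next to 3.13 in HUTU80 and 2.75 in NCIH716. By the chosen probe sets no line had COL5A1 and COL5A2 above 5 together, and COLO320HSR alone had both above background (4.95 and 6.10). In COLO320HSR another COL5A1 probe set read 5.76, above 5, so this line had both chains by that reading. MDST8 and OUMS23, the lines highest in COL5A1, read 2.92 and 3.23 for COL5A2.

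Collagen I, the main fibre of connective tissue, depended on the probe set for COL1A1. By the chosen probe set COL1A1 lay between 4.04 and 4.93 with no line apart. Another of its 5 probe sets read 9.80 in MDST8, 7.77 in OUMS23, 6.96 in HCT116, 6.64 in CAR1 and 5.40 in CL40, and a further probe set exceeded 5 in MDST8 (5.98). The 2 brightest probe sets correlated at -0.360, so the list rule gives no dependable reading of COL1A1. COL1A2 was 4.93 in HUTU80 and 4.68 in OUMS23 and otherwise at or under 4.04. No line had both chains above 5 by the chosen probe sets.

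Collagen VI forms beaded microfilaments around cells from 3 chains. COL6A1 had a median of 4.98 and reached 10.48 in MDST8, 9.12 in SW48 and 8.0 in HCT116, with 9 lines above 5. Its other 7 probe sets did not pass 5.55, with MDST8 highest in 5 of them, so the breadth of COL6A1 rests on 1 probe set. COL6A2 was above 5 in MDST8 (5.54) and HCT116 (5.07), and its second probe set read 8.57 in MDST8. COL6A3 was above 5 in OUMS23 alone (5.05), and no line had all 3 chains above background by the chosen probe sets.

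COL12A1 and COL14A1 encode collagens that sit on the surface of fibrils. COL12A1 had a median of 3.32 and was high in HCT116 (8.85), MDST8 (7.65), CAR1 (7.62) and COLO320HSR (5.66). COL14A1 read 12.70 in NCIH716 and at or under 3.52 in every other line, a gap of 9.18 log2 units, the largest among the members. A second COL14A1 probe set read up to 12.07 in the same line. COL14A1 was therefore seen in a single line, and COL12A1 in others.

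Lumican (LUM) and decorin (DCN) are small leucine-rich proteoglycans that coat collagen fibrils, and their genes are neighbours on chromosome 12. LUM had a median of 2.99 and was high in HUTU80 (11.30), NCIH716 (10.57) and MDST8 (7.05), with the next line at 4.15. DCN had a median of 3.35 and was high in HUTU80 (11.27), with MDST8 next at 4.16 and NCIH716 at 3.42. HUTU80 thus had both, and NCIH716 had LUM with DCN below background. All 5 DCN probe sets were highest in HUTU80. Biglycan (BGN), the relative of decorin, stayed at or under 4.08 by the chosen probe set and at or under 4.71 by any.

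Fibrillins build the microfibrils of elastic tissue. FBN1 had a median of 3.54 and reached 7.71 in MDST8, with all others at or under 4.32; its other 2 probe sets, also highest in MDST8, did not pass 4.73. FBN2 had a median of 3.18 and was high in MDST8 (8.25), HUTU80 (7.90) and CAR1 (5.26). EFEMP1, a fibulin of the same elastic system, had a median of 3.39 and was high in CAR1 (11.94) and HUTU80 (9.01), with all other lines at or under 3.67. All 3 EFEMP1 probe sets were highest in CAR1. Each of these genes therefore had at most 3 lines above 5, and MDST8, HUTU80 and CAR1 supplied all of them.

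**Figure D4:**
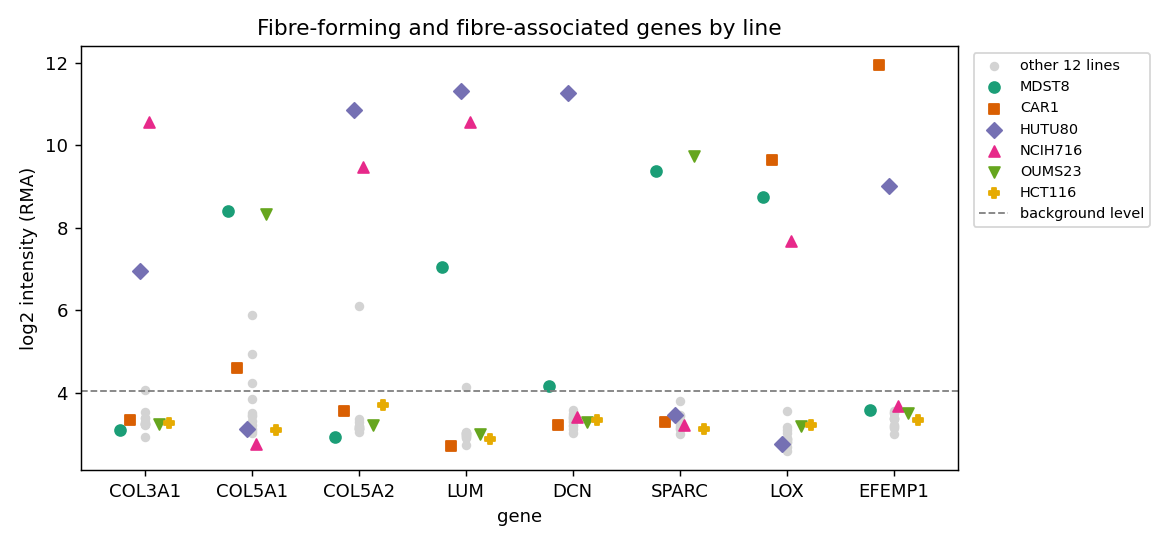
Log2 intensity of 8 fibre-forming and fibre-associated genes (horizontal axis) in 18 lines, 1 point per line, with 6 lines in colour and the others grey; the dashed line is the background level of 4.04. COL3A1, COL5A2 and LUM are highest in HUTU80 and NCIH716, COL5A1 and SPARC in MDST8 and OUMS23, and LOX in CAR1, MDST8 and NCIH716.

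SPARC, a collagen-binding glycoprotein best known from stromal cells and bone, had a median of 3.28 and was high in OUMS23 (9.74) and MDST8 (9.37), with all other lines at or under 3.80. Both of its probe sets gave the same 2 lines above 5. OUMS23 and MDST8 are also the lines highest in COL5A1 and LOXL2, although CDH1 was 11.57 in OUMS23 and 3.16 in MDST8. FN1 was 3.38 in OUMS23 and 12.82 in MDST8.

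Thrombospondin 1 (THBS1), a regulator of adhesion and an activator of latent TGF-beta, was the most widespread matricellular gene. It ran from 3.06 in KM12 over a median of 4.70 to 11.30 in CAR1 and was above 5 in 9 lines, among them MDST8 (9.69), HT55 (8.83), HUTU80 (8.61) and CL40 (7.96). Thrombospondin 2 (THBS2), its close relative, was 11.55 in KM12 and at or under 3.56 in every other line. KM12, the line with high THBS2, was thus under background in THBS1. Tenascin C (TNC) had a median of 3.26 and was high in MDST8 (8.78), CAR1 (8.54), KM12 (6.63), RKO (5.82) and OUMS23 (5.46). Its other 2 probe sets did not pass 3.64, so these levels rest on 1 probe set. Periostin (POSTN), a fibroblast-associated adhesion protein, was above 5 in NCIH716 alone (5.75), where its next probe set read 4.27.

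Lysyl oxidases oxidise lysines so that collagen and elastin chains cross-link. LOX had a median of 2.97 and was high in CAR1 (9.64), MDST8 (8.74) and NCIH716 (7.67), with all other lines at or under 3.56. LOXL2 had a median of 3.43 and was high in MDST8 (9.08), OUMS23 (8.39), HCT116 (6.53), HUTU80 (6.39) and CAR1 (6.16), with all others at or under 3.65. Its other probe sets did not pass 4.87, with that value in MDST8. MDST8 and CAR1 were the lines with both. HUTU80, which had COL3A1, COL5A2, LUM and DCN, read 2.76 for LOX.

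Counted by line, members above 5 ranged from 6 to 19, while the share of all genes above 5 kept to a narrow band. MDST8 had 8 interstitial, 6 basement membrane and 5 matricellular or cross-linking genes above 5, with 48.4% of all genes above it. CAR1 had the same total of 19, split as 5, 10 and 4 (48.8% of all genes). HUTU80 had 7, 5 and 2 (46%), NCIH716 had 5, 4 and 2 (47.5%), HCT116 had 4, 6 and 2 (47.9%), and OUMS23 had 2, 7 and 4 (46.6%). By count, MDST8, HUTU80 and NCIH716 had more interstitial than basement membrane genes above 5, but the classes hold 17 and 13 measured genes. As shares of these, the 2 classes were close in each of the lines, and in NCIH716 the interstitial share was not the larger. COL6A1, counted in NCIH716, exceeded 5 there by 1 probe set only. COL1A1, counted in no line, exceeded 5 by another probe set in MDST8, OUMS23, HCT116, CAR1 and CL40, so the interstitial counts of these lines depend on that choice. HT55 had 1, 8 and 1 (47.6%), CL40 had 1, 7 and 1 (47.5%), LS513 had 1, 6 and 1 (47.4%), and KM12 had 1, 5 and 2 (46.6%). In SW48 the counts were 1, 6 and 0 (47.6%), in RKO 1, 5 and 1 (46.4%), in COLO320HSR 2, 4 and 0 (46.4%), in SNUC1 1, 5 and 0 (47.3%) and in SW948 1, 5 and 0 (47.7%). At the other end RCM1 (48.7%), SW1463 (47.8%) and LS180 (48%) had 0 interstitial genes and 7, 6 and 6 basement membrane genes above 5.

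**Figure D5:**
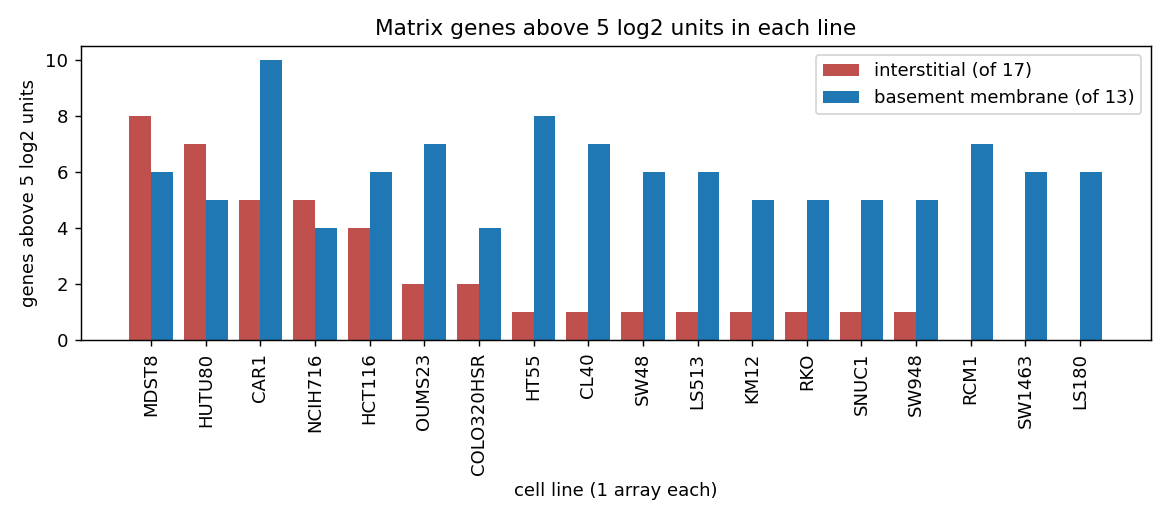
Number of interstitial (red, of 17) and basement membrane (blue, of 13) genes above 5 log2 units in each line by the chosen probe sets, 1 array per line. Interstitial counts run from 0 to 8 and basement membrane counts from 4 to 10. The red bar is higher in MDST8, HUTU80 and NCIH716, as a count from classes of unequal size.

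MDST8, NCIH716 and HUTU80 did not have the same set of interstitial genes above 5. MDST8 (FN1, COL5A1, COL6A1, COL6A2, COL12A1, FBN1, FBN2, LUM) and NCIH716 (COL3A1, COL5A2, COL6A1, COL14A1, LUM) had COL6A1 and LUM in common. HUTU80 (FN1, COL3A1, COL5A2, FBN2, EFEMP1, LUM, DCN) had COL3A1, COL5A2 and LUM in common with NCIH716 and FN1, FBN2 and LUM with MDST8. LUM was the gene above 5 in all 3. CDH1 in these lines was 3.16, 3.67 and 4.08. In CAR1 and HCT116, which had 5 and 4 interstitial genes, CDH1 was 9.57 and 8.81, and in RKO and COLO320HSR, which had 1 and 2, it was 3.43 and 3.50. ZEB1, a repressor of CDH1, was 8.53 in MDST8, 9.43 in NCIH716, 9.12 in HUTU80, 10.66 in RKO and 8.77 in COLO320HSR. VIM, the intermediate filament of mesenchymal cells, was 13.19, 12.33, 12.31, 8.30 and 12.43 in these lines. Both belong to 8 markers of the mesenchymal state, with ZEB2, SNAI2, TWIST1, CDH2, CALD1 and TAGLN. Of the 8, 7 exceeded 5 in MDST8, 4 each in HUTU80, RKO and CAR1, 3 each in NCIH716 and COLO320HSR, and 2 in HCT116.

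Markers of stromal cells outside the matrix were mostly low. Of 10 fibroblast and pericyte markers, PDGFRA, PDGFRB, CSPG4, RGS5, C7 and DPT were not above 5 in any line. PDGFRA, which defines fibroblasts, peaked at 4.69 in NCIH716, and PDGFRB, which defines pericytes, at 3.79 in MDST8. FAP, a protease of activated fibroblasts, was above 5 in NCIH716 (10.32), MDST8 (9.58), HUTU80, SW1463 and LS513, and THY1 (7.56) and PDPN (7.83) in MDST8 alone. MCAM was above 5 in all 18 lines. The summed level of the list ran from 9.44 to 11.41 log2 units, with OUMS23 and NCIH716 highest at 11.41 and 11.39. MCAM made up most of this sum in OUMS23, at 11.35, and no other marker of the list exceeded 5 there. In NCIH716 MCAM was 10.34 and FAP 10.32. Of 9 endothelial markers CDH5 alone exceeded 5 (5.87 in OUMS23; summed level 6.37 to 7.09), and of 8 leukocyte markers PTPRC alone (6.68 in SW48 and 6.40 in COLO320HSR; summed level 6.20 to 7.41). The part of stromal cells in these results was not tested. Of 8 epithelial markers, 0 exceeded 5 in COLO320HSR, 1 in MDST8 (KRT18), 2 in HUTU80 (KRT8 and KRT18), 2 in RKO (EPCAM and KRT18) and 5 in NCIH716, against 7 in SW48 and 8 in each of the other lines.

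The enzymes that make collagen were present in lines with little fibrillar collagen. Of 21 measured genes of collagen synthesis and processing, 18 exceeded 5 in at least 1 line and 10 in all 18, against 64.9% and 33.5% of all genes. SERPINH1, the chaperone of procollagen, ran from 7.32 in SW948 over a median of 8.61 to 10.63 in OUMS23. The most variable was PLOD2, a lysine hydroxylase that prepares collagen for cross-linking, which ran from 2.94 in RKO over a median of 7.58 to 10.35 in COLO320HSR and was above 5 in 12 lines. P3H2, a prolyl 3-hydroxylase of collagen IV, had a median of 4.23 and reached 10.62 in HUTU80. PCOLCE2, an enhancer of procollagen cleavage, had a median of 3.79 and reached 8.22 in COLO320HSR.

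No member was called between the culture media. Between the 10 lines in DMEM/F-12 and the 8 in RPMI-1640, limma with Benjamini-Hochberg adjustment called 0 of 14619 genes higher and 0 lower (0% each), and 377 had an unadjusted p under 0.05. Of the 35 members tested, 0 were called and 1 had an unadjusted p under 0.05. This was HSPG2, at 6.10 ± 1.10 (SD, n = 10) in DMEM/F-12 and 5.00 ± 0.68 (SD, n = 8) in RPMI-1640. The difference was 1.11 log2 units (SE 0.43; limma p = 0.0197, adjusted p = 0.999). The groups overlapped, from 4.55 in RKO to 7.76 in CAR1 in DMEM/F-12 and from 3.98 in SNUC1 to 5.80 in RCM1 in RPMI-1640. The lines of a medium are unrelated cell lines, so the spread within a medium is that between lines.

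The table of RefSeq promoters used here held 27 of the 37 measured members. The first listed promoter held a median of 36 CpG dinucleotides in the 13 basement membrane genes, 29.5 in 8 interstitial genes and 17.5 in 6 matricellular or cross-linking genes. Over all 35116 promoters the median was 14, but there a gene can have several promoters, so the bases of these medians differ. Among the single-line genes, THBS2 had 17 CpG and a TATA box and FBN1 had 26 CpG and no TATA box. LAMB1 and LAMC1, above 5 in every line, had 35 and 41 CpG. The ranges overlapped, from 7 to 46 in the basement membrane genes and from 4 to 38 in the interstitial genes.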

How the data were processed

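Biotin-labelled total RNA of 18 lines was measured on 1 Affymetrix array each. The deposited table holds log2 intensities, which per the submitters' processing notes the authors computed by RMA with affy; no version was given in the sources used here. Values lay between 2.31 and 13.71 and array medians between 3.65 and 3.69, and no further normalization was applied. Of 54613 probe sets, 40914 matched 1 gene, 864 several and 12835 none in the platform annotation; 40858 of the first were in a RefSeq table of GRCh38.p14. Only those with 1 gene were used, and the brightest by mean over the lines stood for the gene. RMA ranks lines within a probe set. The counts above a level set different probe sets against 1 limit, so they depend on how brightly each probe set reads. COL6A1 was above 5 in 9 lines by its chosen probe set and in at most 1 by any other.

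The background level of 4.04 log2 units was taken from 50 genes restricted to other tissues, of which 47 were measured by 69 probe sets, as the 95th percentile of these; values under it have no order. Precision is limited by having 1 array per line. The members and gene lists were chosen with earlier results of these data known. Any member could be named; from other lists, the 3 genes with the largest SD, the genes of counts of 5 or fewer and markers were named, and SERPINH1 was named after its values were seen. Media were compared with limma 3.58.1 (lmFit and eBayes with trend, R 4.3.3) over genes above background in at least 1 line, after a run on simulated data. Python 3.11.15 gave the counts, motif counts and correlations. Alternatives were other probe set rules, background levels, range and gap limits, array scalings, limma settings and leaving out each line.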

Additional observations from a re-analysis of the deposited data

Results flagged for a closer look

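Within each medium, the highest and the lowest line of a member were each compared with the nearest neighbour, as the gap divided by the range of all lines in that medium. In 24 groups, of 19 genes, this ratio was above the 95% limit of Dixon's test, and in each the line was the highest. Chance alone gives about 1 in 20 groups where values are normally spread, and that spread was not tested here. Among the members above background in at least 1 line it was 23 of 70 groups (32.9%), against 15.3% over all genes so treated. Each line was measured once, so none of these values has a repeat.

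HUTU80 stood apart from the other DMEM/F-12 lines in COL3A1 (6.95), COL5A2 (10.85), FBN2 (7.90), LUM (11.30), DCN (11.27) and POSTN (4.28). CAR1 stood apart in COL12A1 (7.62), NID2 (6.77), TNC (8.54), LOX (9.64) and, under the background level, COL4A5 (3.90). OUMS23 stood apart in COL5A1 (8.32), COL6A3 (5.05) and SPARC (9.74). SW948 stood apart in NID1 (3.99), also under the background level. Among the RPMI-1640 lines, NCIH716 stood apart in COL3A1 (10.57), COL14A1 (12.70) and POSTN (5.75). MDST8 stood apart in FBN1 (7.71), FBN2 (8.25), DCN (4.16) and SPARC (9.37). HCT116 stood apart in COL18A1 (5.51) and KM12 in THBS2 (11.55).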

How the results depend on the processing

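The counts of members detected in some line, of members ranging over 3 log2 units and of members set apart in 1 line stayed within 1.5 times their value under the probe set, level and scaling alternatives. Members above background in all 18 lines fell from 5 to 1 at the 99th percentile level (6.51 log2 units) and to 2 at the level of 5 added after the data were seen. Interstitial values above background, 92 of 306, became 37 with the mean of all probe sets of a gene, 28 at the 99th percentile and 41 at 5; basement membrane values, 130 of 234, became 76 at the 99th percentile. Leaving out each line in turn gave 33 to 35 members above background in at least 1 line (interstitial 15 to 17, basement membrane 11, matricellular 6 to 7), 5 to 6 in all lines, 26 to 29 with the range, 4 to 7 set apart, and 81 to 90 interstitial and 120 to 124 basement membrane values. The media fits gave 0 members in every setting run. The highest line was the same for 32 of 37 members with the mean of all probe sets (not FN1, COL1A1, COL5A1, FBN2 and TNC) and 36 with the probe set of largest SD (not COL1A1). Of the checks on single genes and pairs, 34 moved by more than the spread used and 174 did not. The pair LAMA3-LAMB3 was not run. No paired analysis was possible because the replicate numbers only order unrelated lines. With 1 array per line, differences between lines cannot be set against a measurement error.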

Other observations

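Matrix genes outside the list ranged from single lines to nearly all of them. Of 17 other collagens, 9 exceeded 5 in at least 1 line and 0 in all 18, against 64.9% and 33.5% of all genes. COL13A1, a transmembrane collagen, had a median of 3.05 and was above 5 in COLO320HSR (10.36), MDST8 (10.05), LS180 (5.91) and HCT116 (5.40). COL27A1 had a median of 4.60 and reached 9.06 in RKO, and COL9A3, a chain of a cartilage collagen, a median of 4.58 and 9.67 in RCM1. COL15A1, a basement membrane zone collagen related to COL18A1, was 8.03 in OUMS23 and at or under 3.31 in every other line.

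Of 13 other laminins and basement membrane genes, 10 exceeded 5 in at least 1 line and 0 in all 18, against the same 64.9% and 33.5%. LAMA1, a laminin alpha chain of embryonic basement membranes, had a median of 3.16 and was above 5 in OUMS23 (9.68), MDST8 (8.0) and RKO (7.42). FRAS1 had a median of 5.04 and reached 9.61 in COLO320HSR, and SMOC2, a SPARC relative, a median of 3.11 and 8.35 in KM12. Of 28 other matrix proteins, 18 exceeded 5 in at least 1 line, close to the share of all genes (64.9%), and 0 in all 18. TGFBI, an adhesion protein induced by TGF-beta, was above 5 in 13 lines with a median of 9.86 and reached 12.91 in MDST8, CCN2 a median of 5.65 and 12.07 in HUTU80, and VCAN, the large proteoglycan versican, a median of 3.19 and 11.19 in MDST8. Those set apart by 3 log2 units were SPOCK2 in CAR1 (10.89), THBS4 in COLO320HSR (9.31) and THBS3 in NCIH716 (7.79).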
